A study of Mus musculus with 2 samples.

Results

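The transcripts of 39 genes of the Notch pathway were examined in endothelial cells sorted from the normal brain vasculature of C57BL/6 mice. They comprise the receptors and ligands, the enzymes that modify and cut the receptors, the nuclear complex, the target genes, and the adaptors and ubiquitin ligases that tune the signal. Cells were sorted by flow cytometry with antibodies to CD31 and to Prom1 (prominin 1, CD133), and RNA was taken from CD31+ Prom1+ endothelium and from CD31+ Prom1- endothelium. The RNA of each population was hybridized to a single Affymetrix Mouse Genome array. The sources used here give neither the age nor the number of the mice. Of the 39 genes, 38 had a probe set annotated to that gene alone, among 18194 genes on the array, and they had 76 probe sets in all. *Maml3* was dropped for want of such a probe set. The probe set with the highest mean of both signals stood for each gene.

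Notch receptors are cleaved when a ligand on a neighboring cell binds them, and the freed intracellular part enters the nucleus, joins the DNA-binding protein Rbpj and its Maml coactivators, and switches on repressors of the Hes and Hey families. In blood vessels the ligand Dll4 and the receptors Notch1 and Notch4 act in endothelium, where the pathway restrains sprouting and sets arterial identity. Notch3 is the receptor of mural cells, the pericytes and smooth muscle cells that wrap the endothelial tube, and it responds to Jag1 on the endothelium.

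Levels are given below as relative signals, that is, the signal of a probe set divided by the median signal of its array. Relative signals under 1.67, the floor, were raised to 1.67, which corresponds to 100 where arrays are scaled to a target of 500. Where one population was under the floor, the fold is a lower limit and is written as "at least", and where both were, none was taken. With a single array for each population, no fold could be checked against replicates, no p-values were computed, and the number of arrays limits the precision. Probe sets for one gene gave some measure of the error between probe sets. They share the sort, RNA, labeling and hybridization of each array, so they measure neither the error between arrays nor the spread between animals. Their log2 ratios had an SD of 0.54 over 3930 genes, and of 0.36 over 15 Notch genes with more than 1 probe set at or above the floor on both arrays.

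The populations are named by their labels throughout, because the transcript of the sort marker did not separate them. *Prom1* had a relative signal of 159 in the array with the Prom1+ label and of 196 in the one with the Prom1- label, a log2 ratio of -0.30 beside a median of -0.09 for probe sets of like signal. Every direction below rests on these labels. All 18 pan-endothelial markers examined, the CD31 gene *Pecam1* among them, were above the floor in both. Ratios also varied with signal strength. The 17488 probe sets above the floor in both populations had a median log2 ratio, Prom1+ over Prom1-, of 0.66, and bins of mean log2 signal had medians between 0.87, for 3 to 4, and -0.64, for 8 to 9. Each Notch gene is therefore set beside the median of the 1000 such probe sets closest to it in mean log2 signal, called its like-signal median. Several lists of markers of other cells were lower in Prom1+ endothelium. Among microglial markers 8 of 11 were at least 2-fold lower, with summed relative signals of 105 in Prom1+ and 245 in Prom1- endothelium. Of the 11, 10 reached the floor in at least 1 population, the brightest, *C1qb*, with 31.8 in Prom1+ and 78.7 in Prom1- endothelium. The defining *Itgam* was under the floor in both. Among fibroblast markers 3 of 6 were at least 2-fold lower, with sums of 47.5 in Prom1+ and 331 in Prom1- endothelium. Most of both sums came from *Ptgds*, with 40.3 in Prom1+ and 305 in Prom1- endothelium. The next brightest, *Col1a2*, had 2.35 in Prom1+ and 12.9 in Prom1- endothelium, and *Lum* was under the floor in both. Among 8 astrocyte markers 1 was at least 2-fold lower, and the sums were 110 in Prom1+ and 111 in Prom1- endothelium. Of the 8, 5 reached the floor in at least 1 population, the brightest, *Gja1*, with 84.5 in Prom1+ and 67.0 in Prom1- endothelium. *Gja1* made up most of both sums, and each other marker of this list had a lower signal in Prom1+ endothelium. The defining *Gfap*, *Aqp4* and *Aldh1l1* were under the floor in both. Among 9 oligodendrocyte markers 2 were at least 2-fold lower and 1 was higher, with sums of 218 in Prom1+ and 441 in Prom1- endothelium. Of the 9, 5 reached the floor in at least 1 population, the brightest, *Mbp*, with 119 in Prom1+ and 271 in Prom1- endothelium. The defining *Olig1*, *Olig2* and *Sox10* were under the floor in both. Among 5 neuronal markers 2 were lower, with sums of 1.09 in Prom1+ and 19.5 in Prom1- endothelium and 0 of the 5 above the floor in Prom1+ endothelium. The part of these cells in the levels of the Notch genes was not tested.

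Of the 38 Notch genes, 29 were at or above the floor on both arrays, 1 in Prom1+ endothelium only, 1 in Prom1- endothelium only, and 7 on neither. By a rule of 2-fold, 8 of the 38 (21.1%) were higher in Prom1+ endothelium, where 16.7% of all genes were, and 3 of the 38 (7.89%) were lower, where 2.83% of all genes were. Among genes above the floor on both arrays, 24.1% of the 29 Notch genes and 29.0% of all 9360 genes were higher, and 10.3% and 3.12% were lower. The median log2 ratio of the 31 Notch genes that reached the floor in either population was 0.58, against 0.66 for all genes that did. The genes at least 2-fold higher were *Dll1*, *Dll4*, *Lfng*, *Mfng*, *Aph1a*, *Maml1*, *Numb* and *Dtx2*. The 3 lower ones were *Notch3*, *Hey2* and *Heyl*. These counts depended on how the arrays were set against each other. When the log2 ratio was corrected by loess for its dependence on signal, 1 of the 38 was at least 2-fold higher, against 2.89% of all genes, and 4 were lower, against 4.83%. With the hybridization controls set equal, 24 of the 38 (63.2%) were higher, against 47.5% of all genes, and 0 were lower, against 1.04%.

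**Figure D1:**
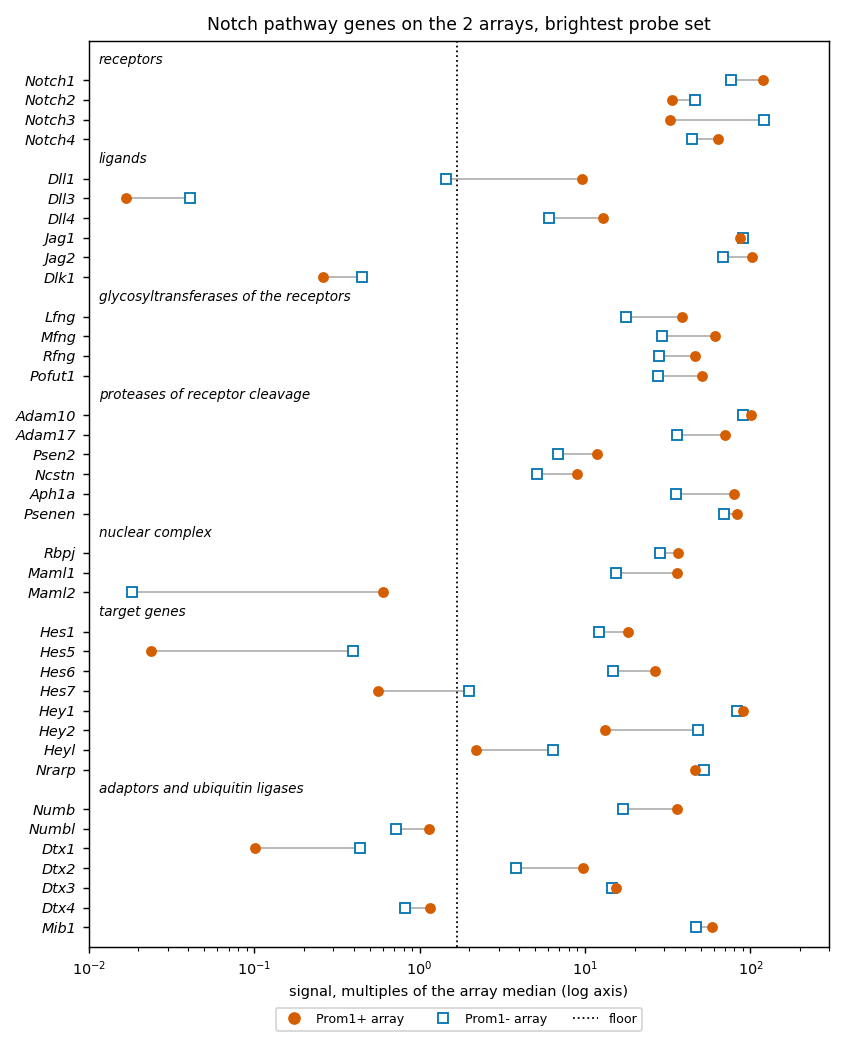
Signals of 38 Notch pathway genes in multiples of the median of each array, on a log axis, by the brightest probe set of each gene. Filled circles are the Prom1+ array, open squares the Prom1- array, and the dotted line is the floor of 1.67; *Notch3*, *Hey2* and *Heyl* have the Prom1+ signal far to the left of the Prom1- signal, and *Dll1* has only its Prom1+ signal above the floor.

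The promoters of *Hey2*, *Notch3* and *Lfng* are shown because *Notch3* and *Hey2* had the lowest ratios of the 29 genes and *Lfng* the highest among the enzymes that modify the receptors. Each window comes from RefSeq in the GRCm38.p6 build and runs from 250 bases before to 50 after the start of the gene. Capitals mark TGGGAA, the core letters of the Rbpj binding motif, or TTCCCA, the same letters on the opposite strand.
Hey2, chr10:30842734-30843033, minus strand: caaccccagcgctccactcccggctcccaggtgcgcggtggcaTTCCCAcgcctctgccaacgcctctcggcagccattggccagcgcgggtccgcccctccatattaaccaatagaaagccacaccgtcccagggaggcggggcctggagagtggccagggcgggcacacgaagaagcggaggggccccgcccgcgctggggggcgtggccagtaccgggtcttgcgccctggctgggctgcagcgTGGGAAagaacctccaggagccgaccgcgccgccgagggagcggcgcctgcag
Notch3, chr17:32166841-32167140, minus strand: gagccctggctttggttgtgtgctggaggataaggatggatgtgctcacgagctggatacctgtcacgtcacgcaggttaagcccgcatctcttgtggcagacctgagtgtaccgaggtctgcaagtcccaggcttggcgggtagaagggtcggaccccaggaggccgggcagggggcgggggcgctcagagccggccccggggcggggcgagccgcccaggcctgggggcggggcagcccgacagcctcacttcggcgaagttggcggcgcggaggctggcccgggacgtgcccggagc
Lfng, chr5:140607091-140607390, plus strand: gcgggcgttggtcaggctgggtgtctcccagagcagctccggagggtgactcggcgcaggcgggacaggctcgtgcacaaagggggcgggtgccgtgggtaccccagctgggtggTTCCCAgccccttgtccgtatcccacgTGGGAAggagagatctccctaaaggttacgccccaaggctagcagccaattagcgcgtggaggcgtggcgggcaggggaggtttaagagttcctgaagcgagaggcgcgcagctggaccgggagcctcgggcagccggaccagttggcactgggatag
*Hey2* held the letters at positions -207 and -3 from the start site and *Lfng* at -135 and -108, and the *Notch3* window held no match. Windows were found for 31 of the 38 genes. The windows of 1 chromosome were left out beforehand, both for these genes and for the background. Of their 39 windows, 11 (28.2%) held at least 1 match, against 25.6% of 32851 windows of the same length. A match is a description of the letters and was not tied to the ratios.

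The 4 receptors were measured on both arrays and did not share a direction. *Notch1*, the main endothelial receptor, had relative signals of 119 in Prom1+ and 76.5 in Prom1- endothelium, a log2 ratio of 0.64 where the like-signal median was 0.23. Its second probe set had relative signals of 27.3 in Prom1+ and 22.0 in Prom1- endothelium, a ratio of 0.31 below a like-signal median of 0.80. The 2 probe sets of *Notch1* thus lay on opposite sides of the probe sets of like signal. *Notch4*, a receptor largely restricted to endothelium, had relative signals of 63.3 in Prom1+ and 44.4 in Prom1- endothelium, and its log2 ratio of 0.51 was 0.05 below the like-signal median of 0.56. A further probe set of *Notch4* had a ratio of 0.18, and the last was under the floor in both populations. *Notch2*, a receptor of many cell types, had relative signals of 33.4 in Prom1+ and 46.5 in Prom1- endothelium. Its log2 ratio of -0.48 was under 2-fold, but its like-signal median was 0.69. It was past 2-fold lower after loess, at -1.14, after quantile normalization, at -1.09, and with both arrays scaled to the same trimmed mean, at -1.02. With the hybridization controls set equal it was 0.55.

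*Notch3* had the lowest ratio of the 4 receptors. It had relative signals of 32.8 in Prom1+ and 121 in Prom1- endothelium and was thus 3.69-fold lower. Of the 1000 probe sets of like signal, 1.2% were at least 2-fold lower and their median log2 ratio was 0.48, so that *Notch3*, with a log2 ratio of -1.88, lay 2.36 below it. The second probe set of *Notch3*, at 32.1 in Prom1+ and 107 in Prom1- endothelium, was 3.32-fold lower, and the 2 ratios differed by 0.15 on the log2 scale. *Notch3* was below 0 under all 6 scalings, between -2.43 and -0.86, and under 2-fold only with the hybridization controls set equal.

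Transcripts of mural cells moved with *Notch3*. Of 15 measured pericyte and smooth muscle markers, 12 were at least 2-fold lower in Prom1+ endothelium and 0 were higher, and their relative signals summed to 542 in Prom1+ and 1524 in Prom1- endothelium. The contractile gene *Myh11* had relative signals of 21.4 in Prom1+ and 85.4 in Prom1- endothelium, the pericyte receptor *Pdgfrb* had relative signals of 19.3 in Prom1+ and 57.2 in Prom1- endothelium, and the pericyte gene *Kcnj8*, at 9.15 in Prom1+ and 12.4 in Prom1- endothelium, was under 2-fold lower. None of the 15 was under the floor in both populations. The lists of microglial, fibroblast, oligodendrocyte and neuronal markers had lower sums in Prom1+ endothelium as well. The part of mural or other cells in the level of *Notch3* was not tested. In RNA from sorted populations fewer cells of a type and less RNA per cell cannot be told apart.

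Of the 6 ligands, 3 were measured on both arrays, *Dll1* in Prom1+ endothelium only, and *Dll3* and *Dlk1* on neither. *Dll1*, a Delta ligand known in arterial endothelium and in neural progenitors, had a relative signal of 9.54 in Prom1+ endothelium and of 1.45, below the floor, in Prom1- endothelium. By its only probe set it was at least 5.70-fold higher. Under the 6 scalings that were compared the log2 ratio was between 1.94 and 3.02, so that *Dll1* stayed past 2-fold in each. Of 7 markers of neural progenitors and ependyma, 0 reached the floor in Prom1+ endothelium and 1 did in Prom1- endothelium. Of all probe sets on the array, 44.6% reached it in Prom1+ and 42.9% in Prom1- endothelium. The part of such cells in the level of *Dll1* was not tested. *Dll4*, the endothelial Delta ligand of arteries and of sprouting tips, had relative signals of 12.8 in Prom1+ and 6.06 in Prom1- endothelium and was 2.12-fold higher. Its second probe set, at 7.44 in Prom1+ and 3.54 in Prom1- endothelium, was 2.10-fold higher. The like-signal medians of these 2 probe sets were 0.88 and 0.85, and 41.4% and 41.7% of the probe sets of like signal were also at least 2-fold higher, so the log2 ratios of 1.08 and 1.07 lay 0.20 and 0.23 above them.

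The probe sets of each Jagged ligand differed in the size of their ratios. *Jag2* had relative signals of 102 in Prom1+ and 68.6 in Prom1- endothelium by its brightest probe set, a log2 ratio of 0.58, and 50.8 in Prom1+ and 19.7 in Prom1- endothelium by the other, which was 2.58-fold higher. Both lay above their like-signal medians of 0.32 and 0.74. For *Jag1*, the brightest probe set had a log2 ratio of -0.05, with 86.3 in Prom1+ and 89.6 in Prom1- endothelium, while the second probe set had -1.23, with 16.6 in Prom1+ and 38.8 in Prom1- endothelium. The third probe set of *Jag1* was under the floor in both populations. The ratios of the first 2 were 1.17 apart, the widest gap among the 15 Notch genes with more than 1 probe set on both arrays, and against like signal they lay at -0.33 and -2.02. Both ratios of *Jag1* were thus below 0 and below like signal, and 1 of them was past 2-fold. With the hybridization controls set equal the brightest probe set had a log2 ratio of 0.97, and under the other 5 scalings its ratio was below 0. *Dll3*, a Delta protein that does not activate receptors on neighboring cells, had relative signals of 0.0169 in Prom1+ and 0.0412 in Prom1- endothelium, and the noncanonical ligand *Dlk1* had 0.259 in Prom1+ and 0.452 in Prom1- endothelium.

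**Figure D2:**
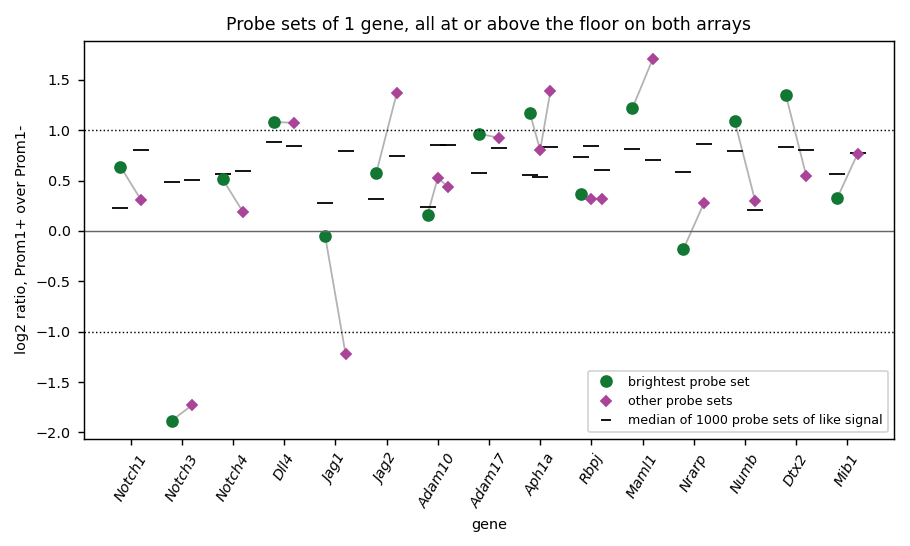
Log2 ratio of Prom1+ over Prom1- for 15 Notch genes with more than 1 probe set at or above the floor on both arrays, 1 point per probe set. Black dashes are like-signal medians and dotted lines mark 2-fold; the *Notch3* probe sets lie at -1.88 and -1.73, while those of *Jag1* are 1.17 apart.

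The glycosyltransferases that act on the receptors lay above their like-signal medians, 4 of 4, where 12 of the 29 Notch genes on both arrays did. They were above 0 under all 6 scalings, as were genes of other groups, among them *Adam17*, *Aph1a*, *Maml1* and *Hes6*. Pofut1 attaches fucose to the receptors, and the fringe enzymes Lfng, Mfng and Rfng extend that sugar and so alter how the receptors respond to Delta and Jagged ligands. *Lfng* had relative signals of 38.5 in Prom1+ and 17.8 in Prom1- endothelium and was 2.17-fold higher. *Mfng* was 2.11-fold higher, with 61.3 in Prom1+ and 29.0 in Prom1- endothelium. *Rfng*, at 46.4 in Prom1+ and 28.1 in Prom1- endothelium, and *Pofut1*, at 51.0 in Prom1+ and 27.8 in Prom1- endothelium, were under 2-fold, with log2 ratios of 0.72 and 0.88. The distances above like signal were small, from 0.03 for *Rfng* to 0.43 for *Mfng*, and none of the 4 was 2-fold higher after loess. The dimmer second probe sets of *Lfng*, *Rfng* and *Pofut1* reached the floor in Prom1+ endothelium only, with limits of at least 1.07-fold, 1.47-fold and 1.65-fold.

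The proteases that release the receptors were all measured on both arrays, 6 of 6, and *Aph1a* alone was past 2-fold. Adam10 and Adam17 cut the receptor outside the membrane, and the gamma-secretase complex, with Psen2, nicastrin (*Ncstn*), Aph1a and Psenen among its subunits, cuts within it. *Aph1a* had relative signals of 79.8 in Prom1+ and 35.6 in Prom1- endothelium and was 2.25-fold higher, and its other 2 probe sets had log2 ratios of 0.80 and 1.39. All 3 lay above their like-signal medians. *Adam17* had relative signals of 70.6 in Prom1+ and 36.2 in Prom1- endothelium, a log2 ratio of 0.97, and its second probe set had 0.92. *Adam10* had relative signals of 101 in Prom1+ and 89.9 in Prom1- endothelium and a ratio of 0.16, beside a like-signal median of 0.23, and its other 2 probe sets above the floor had ratios of 0.53 and 0.44. The ratios of the other gamma-secretase genes lay between 0.01 and 0.13 below their like-signal medians. *Psen2* had relative signals of 11.9 in Prom1+ and 6.90 in Prom1- endothelium and a log2 ratio of 0.79. *Ncstn* had 8.92 in Prom1+ and 5.14 in Prom1- endothelium and a log2 ratio of 0.80. *Psenen* had 83.3 in Prom1+ and 69.2 in Prom1- endothelium and a log2 ratio of 0.27.

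In the nuclear complex, *Rbpj* and *Maml1* had different ratios. *Rbpj*, the DNA-binding protein of the pathway, had relative signals of 36.5 in Prom1+ and 28.3 in Prom1- endothelium. Its 3 probe sets had log2 ratios of 0.37, 0.32 and 0.32, each below its like-signal median, by 0.28 to 0.53. The coactivator *Maml1* had relative signals of 35.8 in Prom1+ and 15.4 in Prom1- endothelium and was 2.32-fold higher, and its second probe set, at 6.86 in Prom1+ and 2.10 in Prom1- endothelium, was 3.27-fold higher. After loess the ratio of *Maml1* was 0.40. *Maml2*, another coactivator, was under the floor in both populations, with relative signals of 0.605 in Prom1+ and 0.0182 in Prom1- endothelium.

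The target genes had the lowest median of the 7 groups of Notch genes as deposited, with the receptors lower after quantile normalization and loess. Of 8 target genes, 0 were at least 2-fold higher and 2 were at least 2-fold lower, beside 16.7% and 2.83% of all genes. The median log2 ratio of the 7 that reached the floor was -0.18. This median was below 0 under 5 of 6 scalings and 1.00 with the hybridization controls set equal. None of the 6 measured on both arrays lay above its like-signal median. *Hey2*, a repressor of arterial endothelium that is also expressed in smooth muscle, had relative signals of 13.2 in Prom1+ and 47.9 in Prom1- endothelium and was 3.64-fold lower. Among probe sets of like signal 1.6% were 2-fold lower, and *Hey2* lay 2.66 below their median. *Heyl*, a repressor downstream of Notch3 in mural cells, had relative signals of 2.20 in Prom1+ and 6.39 in Prom1- endothelium. It was 2.90-fold lower, with its Prom1+ signal close to the floor. Among probe sets of like signal to *Heyl* a larger share, 6.8%, were 2-fold lower, and *Heyl* lay 2.24 below their median. Its second probe set, under the floor in Prom1+ endothelium, was at least 2.06-fold lower, and the third was under the floor in both populations. With a floor at 200 on the target scale, *Heyl* was no longer 2-fold lower. The lists of mural, microglial, fibroblast, oligodendrocyte and neuronal markers, given above, had lower sums in Prom1+ endothelium too. The part of these cells in the levels of *Hey2* and *Heyl* was not tested.

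The other target genes were nearer to the arrays as a whole. *Hey1*, the relative of *Hey2*, had relative signals of 90.0 in Prom1+ and 82.7 in Prom1- endothelium, a log2 ratio of 0.12 beside a like-signal median of 0.29. *Hes1* had relative signals of 18.2 in Prom1+ and 12.2 in Prom1- endothelium and a log2 ratio of 0.58 beside 0.85. *Hes6*, which can oppose Hes1, had relative signals of 26.5 in Prom1+ and 14.7 in Prom1- endothelium and a log2 ratio of 0.85, that of its like-signal median. *Nrarp*, a feedback inhibitor of the pathway, had relative signals of 46.5 in Prom1+ and 52.7 in Prom1- endothelium. The ratios of its 2 probe sets, -0.18 and 0.28, were 0.77 and 0.58 below like signal. *Hes7*, the oscillating repressor of the segmenting embryo, had relative signals of 0.560 in Prom1+ and 1.99 in Prom1- endothelium and reached the floor in Prom1- endothelium only. *Hes5*, a Notch target of neural progenitors, was under the floor by both probe sets, the brighter with 0.0237 in Prom1+ and 0.396 in Prom1- endothelium.

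**Figure D3:**
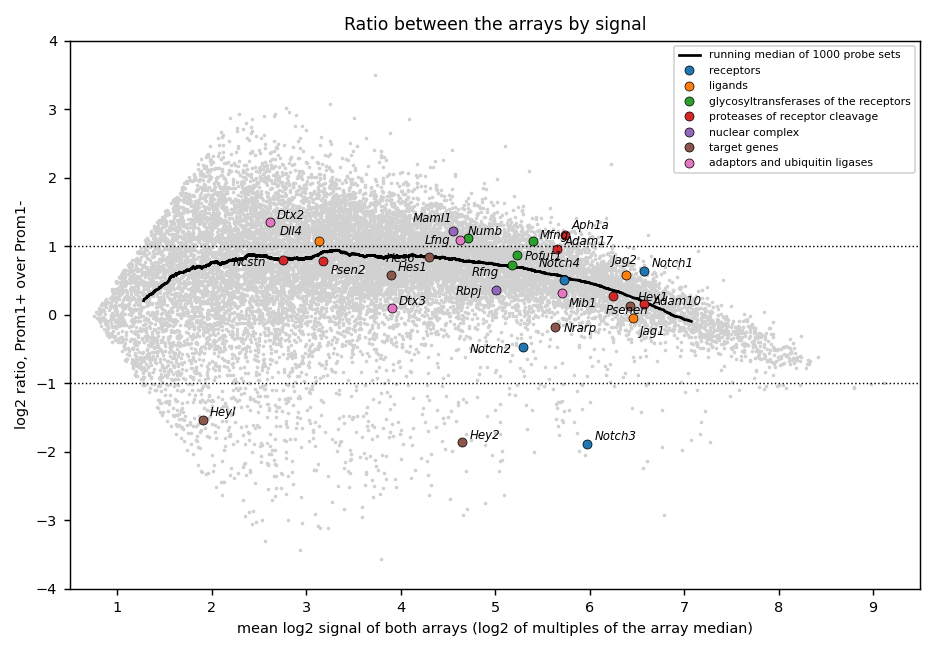
Log2 ratio of Prom1+ over Prom1- against the mean of both log2 relative signals. Grey points are the 17488 probe sets at or above the floor in both populations, the black line is their running median, colored points are 29 Notch genes by role, and dotted lines mark 2-fold; *Notch3*, *Hey2* and *Heyl* lie more than 2 below the line.

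Among adaptors and ubiquitin ligases, 4 of 7 were above the floor. *Numb*, which keeps the receptor from signaling, had relative signals of 36.1 in Prom1+ and 17.0 in Prom1- endothelium and was 2.13-fold higher, while its dimmer probe set, at 2.46 in Prom1+ and 2.00 in Prom1- endothelium, had a log2 ratio of 0.30. *Dtx2*, a ligase of the Deltex family that acts on receptor trafficking, had relative signals of 9.78 in Prom1+ and 3.84 in Prom1- endothelium and was 2.55-fold higher by its brightest probe set, which like those of *Notch3*, *Maml1* and *Hes6* is of a type that may also match related sequences. Its second probe set had a ratio of 0.54, below its like-signal median of 0.80. *Dtx3* had relative signals of 15.5 in Prom1+ and 14.5 in Prom1- endothelium and a ratio of 0.09, which lay 0.76 below like signal. *Mib1*, the ligase that readies ligands for uptake, had relative signals of 58.3 in Prom1+ and 46.7 in Prom1- endothelium and a ratio of 0.32 beside 0.56. *Numbl*, *Dtx1* and *Dtx4* were under the floor in both populations.

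Of the 29 genes at or above the floor in both populations, by the brightest probe set of each, *Notch3*, *Hey2*, *Heyl* and *Notch2* were the Notch genes more than 1 log2 unit away from their like-signal medians, all 4 below. *Dll1* and *Hes7*, each under the floor in one population, have no like-signal median and do not enter this comparison. The scalings shifted most genes together. The median log2 ratio of all genes that reached the floor was 0.66 with array medians equal, as deposited, 0.12 with a common trimmed mean, 0.10 after quantile normalization, 0.04 after loess, 0.56 when the pan-endothelial genes were set equal and 1.64 when the hybridization controls were. The median of the Notch genes followed it, at 0.58, 0.04, 0.03, -0.03, 0.48 and 1.64 in the same order. Of the 8 genes higher as deposited, *Dll1* alone was past 2-fold under each of the 6 scalings. All 8 had ratios above 0 under each. They were chosen for being past 2-fold, and no scaling lowered them by as much as 2-fold, so this outcome adds no support.

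**Figure D4:**
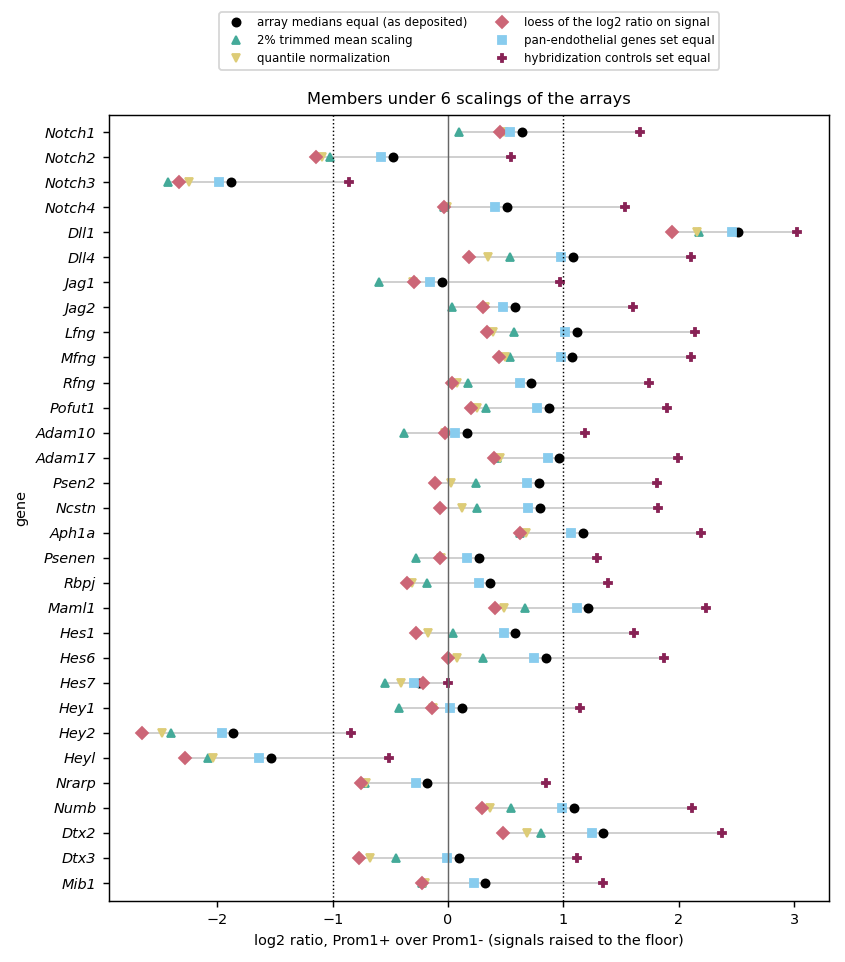
Log2 ratios, Prom1+ over Prom1-, for the 31 Notch genes that reached the floor in either population, under 6 scalings of the arrays, with signals raised to the floor. Dotted lines mark 2-fold; *Dll1* stays to the right of 1 and *Notch3*, *Hey2* and *Heyl* to the left of 0 under all 6.

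Of 51 further genes of the pathway, 47 were on the array and 40 reached the floor. In Prom1+ endothelium 4 of the 47 (8.51%) were past 2-fold higher, where 16.7% of all genes were, and 1 (2.13%) was lower, where 2.83% of all genes were. *Poglut1*, which adds glucose to the receptors, had relative signals of 12.9 in Prom1+ and 3.21 in Prom1- endothelium and was 4.01-fold higher. *Neurl2*, a Neuralized family ligase, was 7.59-fold higher, with 17.6 in Prom1+ and 2.32 in Prom1- endothelium. Of the probe sets of like signal, 41.4% for *Poglut1* and 41.1% for *Neurl2* were also at least 2-fold higher. *Poglut1* lay 1.19 and *Neurl2* 2.11 above its like-signal median. *Neurl1b*, a relative of *Neurl2*, at 3.97 in Prom1+ and 8.27 in Prom1- endothelium, was 2.09-fold lower and lay 1.91 below like signal. The ligase *Cbl*, at 9.39 in Prom1+ and 12.2 in Prom1- endothelium, had a log2 ratio of -0.38, which lay 1.28 below like signal. The brightest of the list were under 2-fold, among them the secreted *Egfl7*, with a relative signal of 198 in each population, the corepressor *Ctbp1*, with 92.1 in Prom1+ and 107 in Prom1- endothelium, the repressor *Bhlhe40*, with 119 in Prom1+ and 79.5 in Prom1- endothelium, and the endocytic adaptor *Epn2*, with 102 in Prom1+ and 88.6 in Prom1- endothelium.

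Of 10 endothelial genes known to respond to Notch or to set arterial and venous identity with it, 9 were measured on both arrays, *Gja5* on neither, and 0 were 2-fold higher or lower, beside 16.7% and 2.83% of all genes. Their median log2 ratio was 0.06, against 0.69 for all genes measured on both arrays. The gap was smaller where signal was taken into account, with medians of -0.21 for the list and 0.04 for all genes after loess. *Efnb2*, the arterial ephrin induced by Notch, had relative signals of 41.5 in Prom1+ and 39.8 in Prom1- endothelium, and the arterial connexin *Gja4* had relative signals of 16.2 in Prom1+ and 27.5 in Prom1- endothelium. Against like signal *Gja4* lay 1.60 and *Efnb2* 0.61 below. *Nr2f2*, the venous factor that represses Notch, had relative signals of 42.1 in Prom1+ and 77.5 in Prom1- endothelium and lay 1.39 below like signal. The other named genes of this list had log2 ratios between -0.42 and 0.62. The VEGF receptor *Flt1* had relative signals of 172 in Prom1+ and 229 in Prom1- endothelium. *Kdr*, the main VEGF receptor, had 69.0 in Prom1+ and 55.3 in Prom1- endothelium, and *Flt4*, the VEGF-C receptor, had 86.0 in Prom1+ and 56.6 in Prom1- endothelium. The arterial factor *Sox17*, at 134 in Prom1+ and 138 in Prom1- endothelium, and the venous receptor *Ephb4*, at 26.1 in Prom1+ and 16.9 in Prom1- endothelium, were likewise under 2-fold. Under the common trimmed mean, quantile normalization and loess 2 of the 10 were 2-fold lower, beside 4.77%, 4.62% and 4.83% of all genes. When the hybridization controls were set equal 5 of the 10 were higher, beside 47.5% of all genes.

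**Figure D5:**
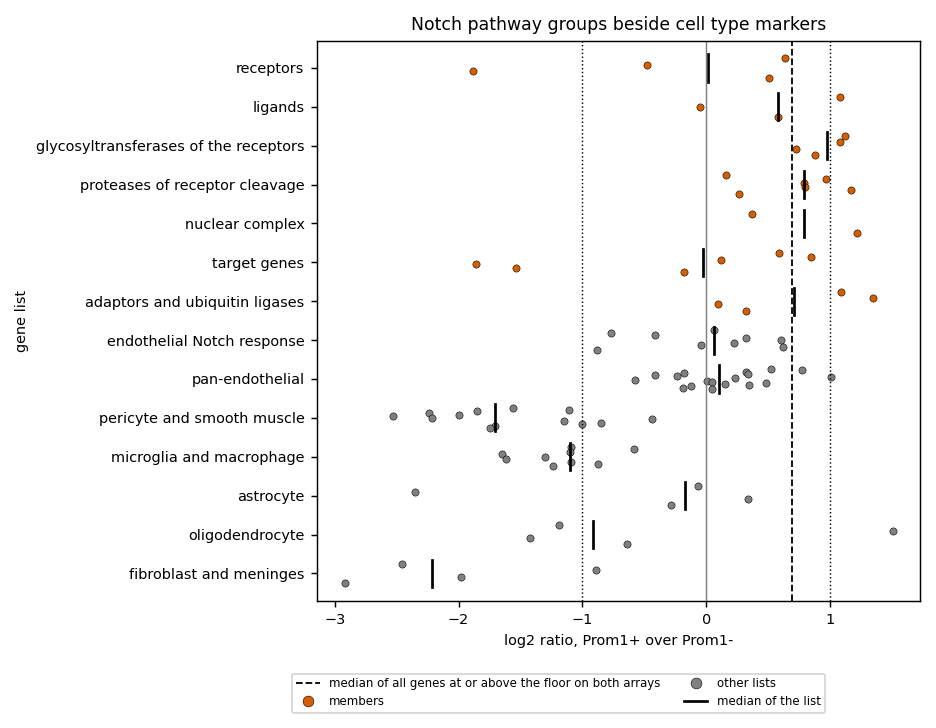
Ratios of Prom1+ over Prom1-, on the log2 scale, for genes at or above the floor on both arrays, 1 point per gene, by Notch pathway group and by cell type list, with the list's median as a bar. The dashed line is the median of all such genes, 0.69, and dotted lines mark 2-fold. *Notch3*, *Hey2* and *Heyl* lie within the range of the pericyte and smooth muscle markers, and also within those of the fibroblast and astrocyte markers.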

How the data were processed

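RNA was amplified and biotin-labeled with the Ovation system, and chips were read with GCOS, scaled to a target of 500 and normalized in GeneSpring by the authors. MAS5 is named in the submitters' notes on processing. What was deposited is, for every probe set, the log2 of its signal divided by the median of its array, ending at -6.64 (0.01 of the median). Signals before that step and detection calls were not used here.

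The platform annotation assigned 34958 of 45101 probe sets to a single gene. The brightest, by the mean of both signals, represented a gene. A floor at 100 of the target was converted to this scale by averaging the 2% trimmed means of the arrays. The named genes were the 39 given and, of further genes, up to 4 of the brightest and the 2 with the most extreme ratio each way, with the sort genes and defining markers of other cells. *Efnb2* was picked after its values were seen. The 39 genes and all lists were chosen with earlier results of these data known.

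Alternatives were floors of 50, 200 and none, thresholds of 1.5 and 3, 5 further scalings (loess span 0.2), and the mean, median or a selection of probe sets. Python 3.11.15, numpy 2.4.6, pandas 2.3.3 and statsmodels 0.14.6 were used.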

Additional observations from a re-analysis of the deposited data

How the results depend on the processing

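The count of Notch genes past 2-fold higher, 8 as reported, was 15 (39.5%) at a threshold of 1.5-fold and 1 (2.63%) at 3-fold. The shares of all genes were 32.4% and 3.91%. The count was 1 (2.63%) with a common trimmed mean, after quantile normalization and after loess, against 4.83%, 3.79% and 2.89% of all genes. When the pan-endothelial genes were set equal it was 5 (13.2%), against 13.7%, and with equal hybridization controls 24 (63.2%), against 47.5%. By the median ratio over the probe sets of a gene it was 5 (13.2%), against 15.6%. The count of lower genes, 3 as reported, was 7 (18.4%) without a floor, against 18.6% of all genes. It was 0 when the hybridization controls were set equal, against 1.04%. The median log2 ratio of the Notch genes, 0.58 as reported, was -0.033 after loess, 0.040 with a common trimmed mean, 0.028 after quantile normalization, 0.48 with equal pan-endothelial genes, 1.64 with equal hybridization controls and 0.72 by the mean over all probe sets. Which scaling is right was not tested. In the other 21 cases these counts stayed within 1.5 times, or the median within 0.1. For single genes 231 values moved by up to 0.54, the SD among probe sets for one gene, and 108 by more. No gene past 2-fold changed sign, but the choice of these genes by their ratios left little room for that. No paired analysis was possible because each population has 1 array. Background limits what can be said of dim genes, and the 27 Bacillus control probe sets reached relative signals of 0.234 in Prom1+ and 0.276 in Prom1- endothelium.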
